A study of Mus musculus with 3 samples.

Results

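The T-cell receptor alpha chain (TRA) segments described here are every V segment (TRAV) and J segment (TRAJ) named on a contig of chain TRA in the immune receptor library, with no selection on any measured level. Of 24469 assembled contig rows, 4896 were of chain TRA, in 3720 cell barcodes, and 4804 of these carried both a V and a TRAJ segment. In cells that could be assigned to a culture there were 3580 such rows, or 3573 rearrangements after 7 repeats of the same V, J and junction within a cell were merged. These used 88 TRAV segments of 20 families and 44 TRAJ segments. The reference table, from RefSeq and not the list by which contigs were named, held 130 TRAV and 60 TRAJ segments.

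The cells came from thymus cultures at day 13, made with embryonic thymi of C57BL/6J mice. Per the paper, the medium of all cultures held FGF7, with thiazovivin at the start of culture. Organoid reaggregate fetal thymic organ cultures (ORFTOCs) were built from thymic epithelial cells grown as organoids, wild-type fibroblasts of mouse embryos and fetal thymus cells from which EpCAM-positive cells had been removed. Fetal thymic organ cultures (FTOCs) were whole embryonic lobes. Per the paper, the epithelial cells came from older embryos than the fetal thymus cells and the lobes. It gives no strain for the fibroblasts. A pair of cultures of each kind was mixed, each pool was stained with its own hashtag antibody, and both were run together, so that gene expression, receptor and hashtag libraries came from 1 lane. There was therefore 1 sample per pool and no test between pools. The 95% intervals given are exact (Clopper-Pearson for shares, Poisson for summed counts) and cover counting error only. Shares of rearrangements count each one as independent, although some cells held more than 1, so that their intervals can be too narrow. The ORFTOC pool held 4248 cells with a median of 8053 unique molecular identifiers (UMIs), and the FTOC pool 4144 cells with a median of 4952. Of these 8392 cells, 2715 shared a barcode with a TRA row and 2687 held a rearrangement, 1058 in ORFTOC and 1629 in FTOC.

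A TRA gene is made by joining a V to a J segment, without a D segment, in double-positive (DP) thymocytes that express the recombinase Rag1 and Rag2. The J segments lie in a row between the V segments and the constant region Trac, and recombination can be repeated on the same chromosome: a later join uses a more upstream V and a more downstream J, and deletes the earlier join. TRAJ numbers run down along the row, so that a high number is proximal to the V segments and a low number distal. TRAV numbers run up towards the J segments, but families TRAV3 to TRAV16 were duplicated in the mouse, so that only TRAV1-2 (the far end) and TRAV17-21 (the near end) are placed by family number alone.

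The germline sequences of the 5 most used J segments, and of TRAJ18, show what each join contributes. They are read 5′ to 3′ as transcribed, from the GENCODE transcripts by name, and the capitals mark the bases that encode the Phe-Gly-X-Gly motif, the first residue of which closes the third complementarity-determining region (CDR3).
TRAJ31: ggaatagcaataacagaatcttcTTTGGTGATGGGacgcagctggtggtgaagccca
TRAJ49: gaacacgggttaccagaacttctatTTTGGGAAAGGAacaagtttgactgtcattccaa
TRAJ23: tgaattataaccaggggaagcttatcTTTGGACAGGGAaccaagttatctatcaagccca
TRAJ43: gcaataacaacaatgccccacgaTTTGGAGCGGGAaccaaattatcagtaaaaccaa
TRAJ37: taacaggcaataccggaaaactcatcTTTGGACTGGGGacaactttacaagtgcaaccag
TRAJ18: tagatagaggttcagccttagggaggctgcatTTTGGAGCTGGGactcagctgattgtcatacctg
They differ in the length of the stretch before the motif, which is 23 bases in TRAJ31 and TRAJ43 and 32 bases in TRAJ18. On the transcribed strand, 45 of 60 TRAJ segments held this motif, with Phe or Trp as its first residue.

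The junctions of the invariant chain of natural killer T cells, TRAV11 joined to TRAJ18, are shown because this pair is fixed in advance by its known function, the recognition of lipids on CD1d. In these the lower case marks bases found in the germline V or J segment, and capitals mark bases found in neither. There were 3 distinct junctions.
TRAV11-TRAJ18, 2 ORFTOC cells: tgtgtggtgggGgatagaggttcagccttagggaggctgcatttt
TRAV11-TRAJ18, 1 ORFTOC cell: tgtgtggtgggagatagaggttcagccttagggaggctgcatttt
TRAV11-TRAJ18, 2 ORFTOC cells and 1 FTOC cell: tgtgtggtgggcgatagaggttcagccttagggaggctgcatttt
All 3 had the same length of 45 bases (15 amino acids), and only 1 of them held a base outside the germline ends. The 6 cells, 5 of ORFTOC and 1 of FTOC, were all in cluster 6 of the immune cells, a cycling cluster described below. They made up 0.353% (0.115 to 0.822) of ORFTOC rearrangements and 0.0464% (0.00117 to 0.258) of FTOC rearrangements, intervals that overlap. The invariant pair of mucosal-associated T cells, TRAV1 with TRAJ33, was not seen, at 0 of 1417 rearrangements in ORFTOC and 0 of 2156 in FTOC, which allows shares of up to 0.212% and 0.139% at 3 counts, and the exact intervals reach 0.26% and 0.171%.

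Sharing of chains between the pools was rare. Of 2030 distinct productive chains, 34 were found in 2 or more cells and 15 in both pools. The 2 most frequent, in 3 cells each, were the last TRAV11-TRAJ18 junction above and a TRAV13-1 chain with TRAJ26. The remaining 13 were tied at 2 cells, and the one shown is the first by V name. Capitals are again bases in neither germline segment.
TRAV13-1 with TRAJ26, 1 ORFTOC cell and 2 FTOC cells: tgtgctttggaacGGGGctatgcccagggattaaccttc
TRAV12D-3 with TRAJ48, 1 ORFTOC cell and 1 FTOC cell: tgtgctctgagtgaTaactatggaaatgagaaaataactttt
In the 15 shared chains the median number of bases outside both germline ends was 1, and 5 of them had none, beside a median of 2 in all productive chains. Both pools were run in 1 lane, and the part of free RNA and mixed droplets in the shared chains was not tested.

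**Figure D1:**
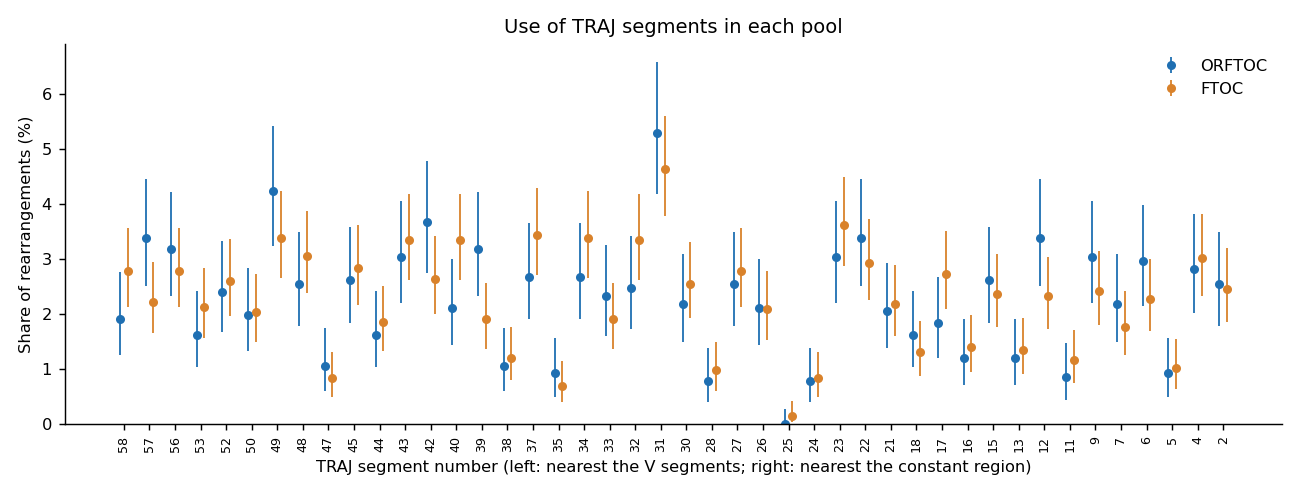
Share of rearrangements (y axis, %) using each of the 44 TRAJ segments seen (x axis, by number, proximal to distal) in the ORFTOC (blue) and FTOC (orange) pools, with exact 95% intervals. TRAJ31 was the most used in both pools, and the intervals of the pools overlapped for every segment.

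J segments were used along the whole row, from TRAJ58 (chr14:54157280-54157342 on GRCm38, which is mm10, from RefSeq) to TRAJ2 (chr14:54217836-54217901). All 9 TRAJ segments that the reference table calls pseudogenes were absent, as were 7 that it does not, namely TRAJ3, TRAJ19, TRAJ20, TRAJ29, TRAJ41, TRAJ46 and TRAJ59. TRAJ41 was named on 1 TRA row of any barcode and the others on none. Contigs were not named from this table, so that a segment missing from the naming list cannot be told from an unused one. The most used was TRAJ31 (chr14:54187895-54187951), with 75 rearrangements or 5.29% (4.19 to 6.59) in ORFTOC and 100 or 4.64% (3.79 to 5.61) in FTOC. TRAJ49 (chr14:54168686-54168744) was in 60 and 73 rearrangements, TRAJ23 (chr14:54196081-54196140) in 43 and 78, TRAJ43 (chr14:54174742-54174798) in 43 and 72, and TRAJ37 (chr14:54181518-54181577) in 38 and 74, in ORFTOC and FTOC respectively. At the other extreme TRAJ25 was in 3 rearrangements, all in FTOC and none productive. The intervals of the pools were apart for none of 44 TRAJ segments (0%) and none of 20 TRAV families (0%). Across the 44 segments the shares in the pools had a Spearman rho of 0.74 and a Pearson r of 0.83, given as a description of segments amplified and sequenced in 1 library.

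Grouped by position, the pools were again close. Proximal J segments (TRAJ41 and above) made up 33.2% (30.8 to 35.8) of 1417 ORFTOC rearrangements and 32.5% (30.5 to 34.5) of 2156 FTOC rearrangements. Middle J segments (TRAJ21 to TRAJ40) made up 39.6% (37.0 to 42.2) and 41.9% (39.8 to 44.0). Distal J segments (TRAJ20 and below) made up 27.2% (24.9 to 29.6) and 25.6% (23.7 to 27.5). The median J number was 32 in both pools. All 3 pairs of intervals overlapped. Clusters that scored highest on DP markers, described below, held 30.3% of ORFTOC and 56.4% of FTOC rearrangements. The part of this in the shares of the pools was not tested.

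The V segments most used were TRAV6-7-DV9 (chr14:53709943-53710419) and its N copy TRAV6N-7 (chr14:53318818-53319284), with 121 rearrangements each, TRAV21-DV12 (chr14:53876016-53876752) with 118, TRAV13-1 (chr14:53545014-53545525) with 116 and TRAV12-2 (chr14:53616397-53616914) with 111. TRAV21-DV12 lies nearest the J segments of these and gave 3.39% (2.51 to 4.47) of ORFTOC and 3.25% (2.54 to 4.08) of FTOC rearrangements. By family, TRAV6 led with 527 rearrangements, followed by TRAV13 with 478, TRAV12 with 440 and TRAV7 with 389. The copies of 1 family are near-identical, so that which copy a contig came from is uncertain, whereas the family is not affected by this.

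**Figure D2:**
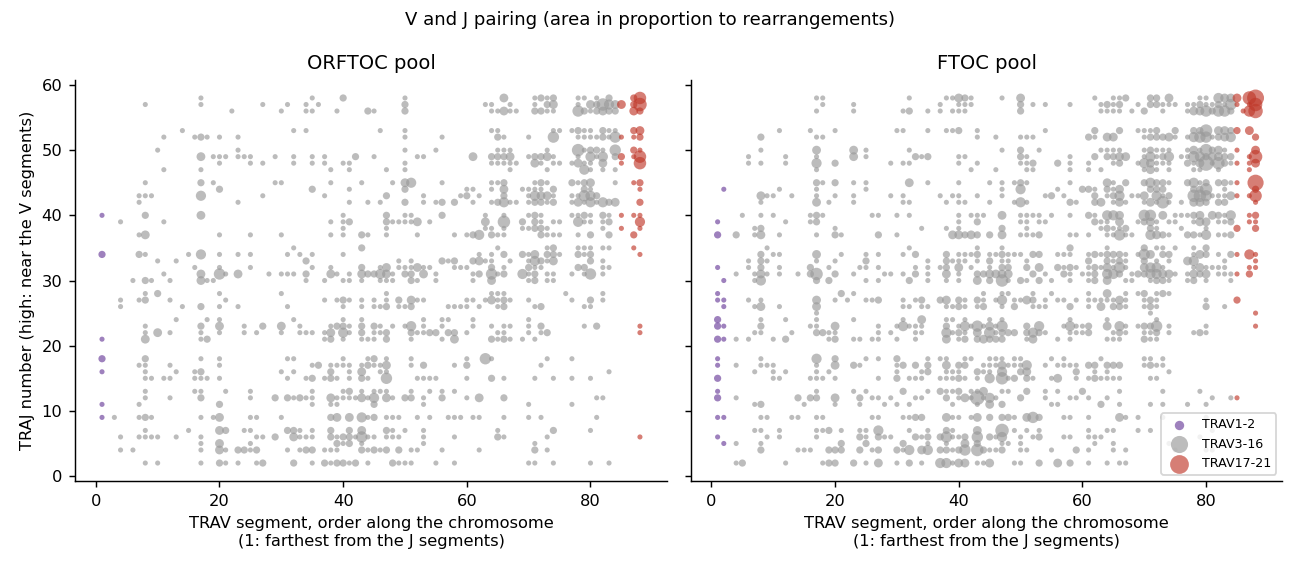
TRAJ number (y axis) against the order of the TRAV segments along the chromosome (x axis) for every rearrangement of the ORFTOC (left) and FTOC (right) pools, with the area of each point in proportion to the number of rearrangements. TRAV17-21 (red) sat mainly with high J numbers and TRAV1-2 (purple) with middle and low ones in both pools. Over all rearrangements Spearman rho was 0.50 and 0.49.

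V and J segments were paired by position along the locus. In ORFTOC, 59 of 75 TRAV17-21 rearrangements, or 78.7% (67.7 to 87.3), had a proximal J segment, 15 a middle and 1 a distal one. In FTOC, 91 of 117, or 77.8% (69.2 to 84.9), had a proximal J segment, 25 a middle and 1 a distal one. Few TRAV1-2 rearrangements had a proximal J segment, at 0 of 9 in ORFTOC (0 to 33.6%) and 1 of 29, or 3.45% (0.0873 to 17.8), in FTOC. The rest had 4 middle and 5 distal J segments in ORFTOC, and 17 middle and 11 distal ones in FTOC. The median J number of TRAV17-21 was 49 in each pool, and that of TRAV1-2 was 18 in ORFTOC and 23 in FTOC. Within each pool the intervals of the far and near V groups did not overlap.

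The same pairing was seen apart from productive chains. Among non-productive rearrangements, 24 of 31 TRAV17-21 joins in ORFTOC and 40 of 52 in FTOC used a proximal J segment. None of the 7 and 20 non-productive TRAV1-2 joins did.

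Over all rearrangements, the rank correlation of V family number with J number was 0.19 in ORFTOC (n = 1417) and 0.15 in FTOC (n = 2156), since the duplicated families mix near and far copies. Ordered instead by the chromosome position of the named copy, it was 0.50 and 0.49. For example, TRAV6-7-DV9 was joined to 76 proximal, 39 middle and 6 distal J segments, and its N copy TRAV6N-7, which lies farther from the J segments, to 8, 60 and 53. In the families TRAV3 to TRAV16 the median J number was 39 for segments without a D or N mark in both pools, 22 for N copies in both pools, and 23 (ORFTOC) and 27 (FTOC) for D copies. These are descriptions across chains that share a library, and they rest on the uncertain naming of copies.

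**Figure D3:**
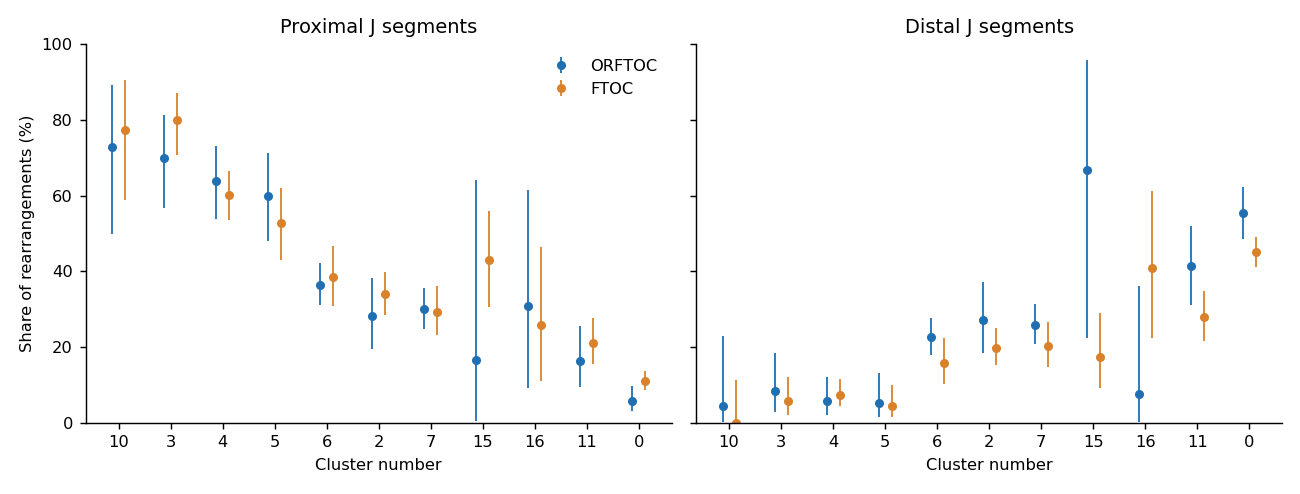
Share of rearrangements (y axis, %) with a proximal (left) or distal (right) J segment in clusters of immune cells (x axis, by cluster number) in the ORFTOC (blue) and FTOC (orange) pools, with exact 95% intervals. In cluster 0 distal J segments were 55.5% and 45.1%, and in cycling cluster 3 they were 8.33% and 5.77%.

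The position of the J segment differed between clusters of immune cells, and in the 8 clusters with 50 or more rearrangements in each pool the intervals of the pools overlapped. Clusters were made without receptor segments, Trac, Rag1 or Rag2. Clusters 0, 2, 4, 15 and 16 scored highest on a DP marker list (Cd4, Cd8a, Cd8b1 and others). Cd8b1 was among the leading genes of cluster 2, and Ly6d, Dntt and Aqp11 among those of cluster 4. Cluster 15 was led by interferon-induced genes (Usp18, Ifit1). Cluster 0, with Tdrd5 and Rag1 among its leading genes, had a median of 1472 UMIs and no DP marker among its 10 leading genes, and is called by its number alone. Clusters 3 and 10 were cycling, cluster 11 had markers of selected thymocytes (Cd5, Itm2a) and cluster 7 those of mature thymocytes (S1pr1, Klf2). Cluster 6 scored highest on the cycling list and was led by Igfbp4. Cluster 5, led by Ly6c2 and with Klrd1 and Nkg7 among its leading genes, was not named.

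In cycling cluster 3, 42 of 60 ORFTOC rearrangements, or 70.0% (56.8 to 81.2), and 83 of 104 FTOC rearrangements, or 79.8% (70.8 to 87.0), had a proximal J segment. In cluster 4 proximal J segments were 63.8% (53.9 to 73.0) in ORFTOC and 60.1% (53.4 to 66.5) in FTOC, and in cluster 2 they were 28.1% (19.4 to 38.2) and 34.0% (28.5 to 39.9). In cluster 0 they were 5.74% (3.0 to 9.82) and 11.02% (8.66 to 13.8). From cluster 4 to cluster 2 to cluster 0 the intervals were apart at each step within each pool.

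Distal J segments ran the other way. They were 5.71% (2.13 to 12.02) of cluster 4 rearrangements in ORFTOC and 7.46% (4.4 to 11.7) in FTOC, against 55.5% (48.5 to 62.4) and 45.1% (41.1 to 49.1) in cluster 0. The median J number was 45 and 44 in cluster 4, 31.5 and 34 in cluster 2, and 17 and 22 in cluster 0, for ORFTOC and FTOC. TRAV17-21, the near V group, followed the proximal J segments, at 35 of 164 rearrangements in cluster 3 over both pools, 39 of 333 in cluster 4, 19 of 378 in cluster 2 and 10 of 826 in cluster 0.

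The later thymocytes held a mixture. In the mature cluster 7, 29.97% (24.7 to 35.6) of ORFTOC and 29.3% (23.1 to 36.2) of FTOC rearrangements were proximal and 25.8% (20.8 to 31.3) and 20.2% (14.8 to 26.5) distal. In the selected cluster 11, proximal J segments were 16.3% (9.42 to 25.5) and 21.1% (15.6 to 27.6), and distal ones 41.3% (31.1 to 52.1) and 27.8% (21.7 to 34.7). Apart from these, cluster 5, which was not named as thymocytes, had 105 of 189 rearrangements over both pools proximal and 9 distal. The overlap of the pools in the 8 larger clusters held for the proximal and for the distal share. The distal share was nevertheless higher in ORFTOC in each of these clusters except cluster 4, where it was 5.71% in ORFTOC and 7.46% in FTOC. The small DP-list clusters differed in direction by pool, with distal J segments in 4 of 6 ORFTOC and 11 of 63 FTOC rearrangements in cluster 15, and in 1 of 13 and 11 of 27 in cluster 16, with intervals of the pools that overlapped in each.

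Detection of TRA differed between these cells. A rearrangement was found in 90.7% (87.2 to 93.5) of cluster 7 cells, 88.3% (83.3 to 92.2) of cluster 11 cells, 62.9% (59.8 to 65.8) of cluster 0 cells and 30.6% (26.3 to 35.1) of cluster 3 cells, whose median depths were 5802, 1832, 1472 and 8852 UMIs. In cluster 3 the pools were apart, at 21.7% (16.6 to 27.5) in ORFTOC and 40.5% (33.8 to 47.45) in FTOC. In epithelial cells, which do not rearrange TRA, a rearrangement was found in 74 of 2189 or 3.38% (2.66 to 4.23), at a median of 12740 UMIs, a level taken here as the background of free RNA and mixed droplets. Other cells that should lack TRA stood above this. Among them was cluster 14, which scored highest on the epithelial list but grouped with the immune cells. It was at 34 of 124 cells or 27.4% (19.8 to 36.1) and a median of 2903 UMIs. The macrophage cluster 12 was at 12 of 140 cells in ORFTOC and 17 of 44 in FTOC. Cluster 8, which scored highest on the natural killer or innate lymphoid list, also stood above it, at 38 of 320 cells or 11.9% (8.54 to 15.9). The share in cluster 3 overlapped that of cluster 14. In all, 109 of the 3573 rearrangements lay outside the immune compartment, and their part in the shares of the pools was not tested.

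Productive and non-productive rows are the in-frame, translatable contigs and the rest. In ORFTOC 897 rearrangements were productive and 520 non-productive, and in FTOC 1169 and 987. The non-productive share was thus 36.7% (34.2 to 39.3) in ORFTOC and 45.8% (43.7 to 47.9) in FTOC, with intervals apart. Non-productive contigs had less support, at a median of 2 UMIs in both pools against 6 (ORFTOC) and 5 (FTOC) for productive ones, and a non-productive label can come from an incomplete contig. Over both pools 271 of 1507 non-productive rows were not full length, 732 were full length with no CDR3 found and 504 were full length with a CDR3. Among full-length rows alone the share was 32.2% (29.7 to 34.8) in ORFTOC and 40.9% (38.8 to 43.1) in FTOC.

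The pools also differed in the make-up of their thymocytes, and the part of this in the non-productive share was not tested. The DP-list clusters held 56.4% of FTOC rearrangements and 30.3% of ORFTOC rearrangements, whereas clusters 6 and 7 held 16.3% and 41.6%. The non-productive share was 50.2% (43.3 to 57.2) in ORFTOC and 54.8% (50.8 to 58.8) in FTOC for cluster 0, and 26.8% (21.8 to 32.3) and 25.3% (19.4 to 31.9) for cluster 7. It was 28.5% (23.4 to 33.9) and 27.5% (20.6 to 35.2) in cluster 6, and 31.5% (22.2 to 42.0) and 38.1% (31.3 to 45.4) in cluster 11. The gap was widest of these in cluster 3, at 48.3% (35.2 to 61.6) and 61.5% (51.5 to 70.9), and in cluster 4 the shares were 45.7% (36.0 to 55.7) and 52.6% (45.9 to 59.3). Within each of the 8 clusters with 50 or more rearrangements per pool, the intervals of the pools overlapped.

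Non-productive rows were also more frequent at the distal end. In FTOC they were 42.7% (39.0 to 46.4) of rearrangements with a proximal and 45.1% (41.8 to 48.4) with a middle J segment. With a distal one they were 50.8% (46.6 to 55.1), and the intervals of proximal and distal were only just apart. In ORFTOC the shares were 34.4% (30.1 to 38.9), 34.8% (30.8 to 38.9) and 42.3% (37.3 to 47.5), with intervals that overlapped. Among J segments with at least 20 rearrangements, the highest non-productive shares were those of TRAJ24 (21 of 29, or 72.4%, 52.8 to 87.3), TRAJ2 (51 of 89, or 57.3%, 46.4 to 67.7) and TRAJ32 (58 of 107, or 54.2%, 44.3 to 63.9). The lowest were those of TRAJ47 (7 of 33, or 21.2%, 8.98 to 38.9), TRAJ43 (37 of 115, or 32.2%, 23.8 to 41.5) and, tied, TRAJ40 and TRAJ48 (33 of 102 each, or 32.4%, 23.4 to 42.3).

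The share of cells with a second TRA chain had overlapping intervals in the pools. Counting productive, full-length, high-confidence chains, 75 of 804 ORFTOC cells with a chain held 2, or 9.33% (7.41 to 11.6), and 100 of 1041 FTOC cells, or 9.61% (7.88 to 11.6). For the beta chain (TRB), at which allelic exclusion normally leaves 1 productive chain per cell, the same count gave 4.90% (3.91 to 6.05) of 1654 ORFTOC cells and 7.93% (6.89 to 9.07) of 2472 FTOC cells. TRA exceeded TRB with intervals apart in ORFTOC, and the intervals overlapped in FTOC. Cells with 2 productive TRA chains were deeper, at median UMIs of 7566 against 5840 in ORFTOC and 4479 against 2209 in FTOC, and the part of mixed droplets in these counts was not tested.

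Counting rearrangements of any kind, 322 of 1058 ORFTOC cells, or 30.4% (27.7 to 33.3), and 478 of 1629 FTOC cells, or 29.3% (27.1 to 31.6), held exactly 2. In ORFTOC, 70 of these cells had 2 productive chains, 224 had 1 productive and 1 non-productive, and 28 had none productive. In FTOC the numbers were 92, 279 and 107.

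**Figure D4:**
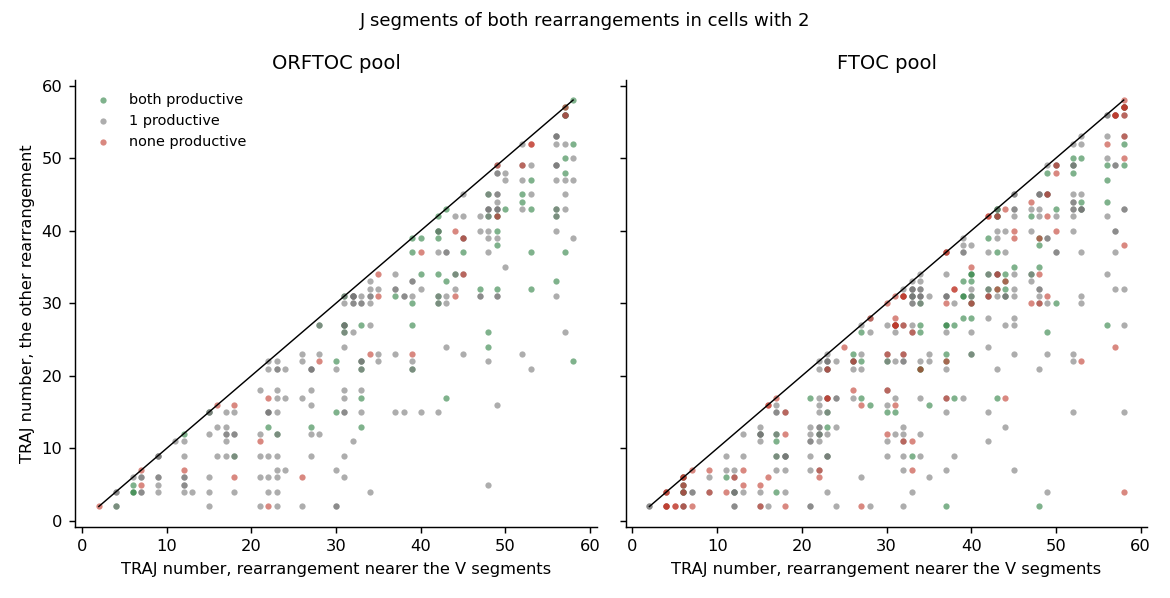
TRAJ numbers of both rearrangements in cells with exactly 2, with the one nearer the V segments on the x axis and the other on the y axis, in the ORFTOC (left, 322 cells) and FTOC (right, 478 cells) pools. Points lie close under the line of equal J numbers, with median distances of 6 and 7 J numbers.

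Both rearrangements of a cell lay close together in the J row. The median distance between them was 6 J numbers (quartiles 3 and 12) in ORFTOC and 7 (3 and 13) in FTOC, beside a median distance of 16 between rearrangements of different cells of the same set in each pool. The distance was 10 or less in 217 of 322 ORFTOC cells, or 67.4% (62.0 to 72.5), and in 325 of 478 FTOC cells, or 68.0% (63.6 to 72.2). The rank correlation of the J numbers within cells, each pair entered both ways, was 0.74 in ORFTOC and 0.68 in FTOC. The same J segment was used by both rearrangements in 27 and 40 cells, which by the merging of repeats differ in the named V segment or the listed junction. A row without a CDR3 counts as another junction, and near-identical V copies can be confused. Some of these pairs can therefore be a single rearrangement listed more than once, and their part in the distances was not tested.

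Inside single clusters the distance was also below that between cells, to a varying degree. In cluster 0 the median distance was 7 in 41 ORFTOC cells and 8 in 128 FTOC cells, beside 13 and 14 between cells. In the mature cluster 7 it was 7 in 79 ORFTOC cells and 8 in 53 FTOC cells, beside 15 and 14. It was less marked in cluster 4 of ORFTOC, at 6 beside 9, with a rank correlation of 0.16 over 17 cells. Where 1 rearrangement was productive and the other not, the productive one had the more distal J segment in 98 of 210 ORFTOC cells, or 46.7% (39.8 to 53.7), and in 125 of 258 FTOC cells, or 48.4% (42.2 to 54.7), so neither order was in excess beyond counting error.

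The CDR3 of productive chains had a median length of 14 amino acids in both pools. The mean was 13.7 ± 1.33 (SD over 897 chains) in ORFTOC, with a range of 10 to 19, and 13.7 ± 1.51 (SD over 1169 chains) in FTOC, with a range of 7 to 19. A length of 14 was the most frequent, at 31.1% (28.1 to 34.2) in ORFTOC and 28.7% (26.1 to 31.3) in FTOC. Lengths of 16 or more were found in 63 ORFTOC chains, or 7.02% (5.44 to 8.90), and in 133 FTOC chains, or 11.4% (9.61 to 13.3), with intervals apart. The DP-list clusters held 221 of the ORFTOC and 567 of the FTOC chains, and the part of this in the gap was not tested.

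Long CDR3s went with proximal J segments. With a proximal J segment the mean was 13.97 in ORFTOC and 14.18 in FTOC, with a middle one 13.45 and 13.39, and with a distal one 13.7 and 13.75. Lengths of 16 or more made up 10.03% (6.92 to 13.9) of proximal, 4.37% (2.52 to 7.0) of middle and 7.21% (4.18 to 11.4) of distal chains in ORFTOC, where the intervals of proximal and middle just met. In FTOC they made up 19.9% (16.1 to 24.1), 5.04% (3.29 to 7.35) and 10.3% (6.98 to 14.6), with those of proximal and middle apart. TRAV17-21 chains had a mean of 14.5 in ORFTOC and 14.6 in FTOC. By group of cells, lengths of 16 or more were 11.8% (7.83 to 16.8) in DP-list clusters and 2.86% (1.06 to 6.12) in the mature cluster in ORFTOC, and 13.6% (10.9 to 16.7) and 5.41% (2.36 to 10.4) in FTOC, with intervals apart within each pool. Between the pools the intervals overlapped in the DP-list clusters and in the mature cluster. By J position they overlapped for middle and distal chains but were apart for proximal ones, which were longer in FTOC (16.1 to 24.1) than in ORFTOC (6.92 to 13.9). Among non-productive rows 664 had a CDR3, all with a multiple of 3 bases and a median of 42 bases, and 843 had none, so that frame-shifted lengths could not be read.

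Junctions held few bases that were in neither germline segment. The median was 2 in each pool, over 877 ORFTOC and 1143 FTOC chains whose ends matched. No such base was found in 21.8% (19.1 to 24.7) of ORFTOC chains and 17.2% (15.1 to 19.5) of FTOC chains, with intervals that overlapped.

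**Figure D5:**
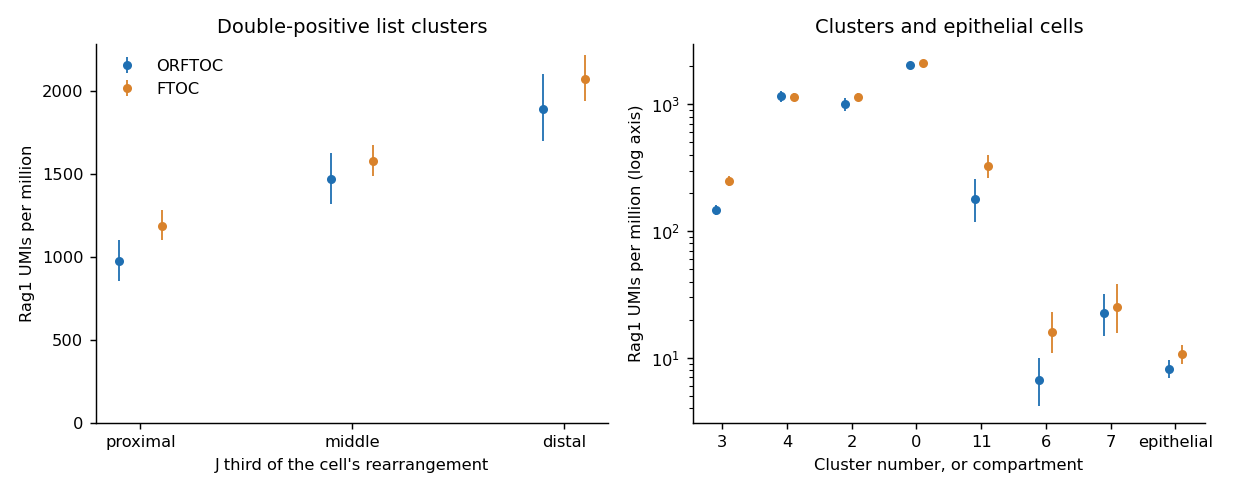
Rag1 CPM (y axis) in ORFTOC (blue) and FTOC (orange), in DP-list cluster cells by the J position of their rearrangement (left, linear axis) and in clusters and epithelial cells (right, log axis), with exact 95% intervals for counting error. The level was 1892 and 2073 with a distal J segment against 974 and 1188 with a proximal one.

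Rag1 was read beside the receptor state, in CPM, the summed Rag1 UMIs scaled to all UMIs of the same cells. In cluster 0 it was 2029 in ORFTOC and 2102 in FTOC, with overlapping intervals, in cluster 2 it was 1003 (892 to 1124) and 1141 (1060 to 1226), and in cluster 4 it was 1159 (1043 to 1283) and 1137 (1061 to 1217). It was 178 (118 to 257) and 325 (264 to 396) in the selected cluster 11, and 22.4 (15 to 32.2) and 25.2 (15.8 to 38.1) in the mature cluster 7. Epithelial cells were at 8.17 (6.88 to 9.63) and 10.7 (9.0 to 12.7). They were deeper than cluster 7 cells, so that their CPM does not give the level of free RNA in those cells. By share of cells with Rag1, cluster 7 was at 7.58% (4.4 to 12.02) in ORFTOC and 7.79% (4.09 to 13.22) in FTOC. Epithelial cells were at 5.87% (4.62 to 7.33) and 6.24% (4.79 to 7.96), with intervals that overlapped those of cluster 7 in each pool. Whether Rag1 in cluster 7 exceeded free RNA was not tested. The clusters with the highest Rag1 thus included the one with the most distal J segments.

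Over all DP-list clusters pooled, which differ both in Rag1 and in J position, Rag1 was higher in cells whose best supported rearrangement had a more distal J segment. In ORFTOC it was 974 (855 to 1104) with a proximal, 1466 (1319 to 1625) with a middle and 1892 (1699 to 2100) with a distal J segment, in 94, 138 and 125 cells. In FTOC it was 1188 (1101 to 1280), 1577 (1486 to 1672) and 2073 (1940 to 2214), in 263, 407 and 286 cells. All intervals were apart within each pool, but with cells thinned to 1000 UMIs those of proximal (904 to 1341) and middle (1301 to 1721) in ORFTOC overlapped. Inside single clusters the order was not general. For proximal, middle and distal J segments, FTOC was at 1630 (1384 to 1907), 1969 (1825 to 2122) and 2261 (2099 to 2433) in cluster 0, at 874, 1164 and 936 in cluster 2 and at 1115, 1087 and 1324 in cluster 4. ORFTOC was at 1435, 2010 and 1945 in cluster 0, at 676, 1006 and 1163 in cluster 2 and at 1072 (912 to 1253), 1204 (933 to 1529) and 2589 (1734 to 3719) in cluster 4, the last from 6 cells. Proximal and distal had intervals apart in FTOC cluster 0 and ORFTOC cluster 4, and overlapped in the other 4 of these 6 sets. The total UMIs per cell moved the other way, with medians of 2384, 1662 and 1424 in ORFTOC and 2070, 1633 and 1426 in FTOC. Per cell, Rag1 UMIs were 2.57, 2.62 and 2.81 in ORFTOC and 2.63, 2.77 and 3.14 in FTOC, ranges narrower than those of the CPM.

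Between DP-list cluster cells without and with 1 productive chain, Rag1 differed less. In DP-list cluster cells of FTOC it was 1597 (1539 to 1656) without a productive chain, 1559 (1478 to 1643) with 1 and 1541 (1272 to 1849) with 2. In ORFTOC it was 1549 (1460 to 1642), 1501 (1380 to 1629) and 883 (566 to 1314), the last from 13 cells and 24 UMIs. Over all immune cells, which include cells that never rearrange TRA, it was 138 (132 to 144), 140 (130 to 151) and 60.4 (42.9 to 82.5) in ORFTOC, and 350 (339 to 362), 409 (390 to 429) and 279 (240 to 324) in FTOC. In FTOC the order of cells without and with 1 productive chain was the other way when each cell was thinned to 1000 UMIs, at 902 and 892, with overlapping intervals. In ORFTOC it was the other way with within-pool doublets kept, at 159 (151 to 167) without and 132 (122 to 142) with 1, intervals apart, and with 2 or more UMIs per contig, at 141 and 131, intervals overlapping. No order of these groups over all immune cells is therefore drawn in either pool. Immune cells with only non-productive rearrangements stood at 509 (464 to 556) in ORFTOC and 989 (938 to 1041) in FTOC, against 113 (108 to 119) and 251 (241 to 262) in cells with no rearrangement. In the DP-list clusters they stood at 1318 (1185 to 1460) and 1587 (1499 to 1679), against 1690 (1572 to 1814) and 1603 (1528 to 1681) with no rearrangement. In the selected cluster 11 of FTOC, Rag1 was 678 (489 to 917) without a productive chain and 172.5 (121 to 239) with 1, intervals apart. With 2 it was 639 (390 to 987), from 11 cells. In ORFTOC cluster 11 it was 250 (120 to 460), 158 (90.5 to 257) and 120 (14.5 to 434), with intervals that overlapped.

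The other genes of TRA recombination were read from a list of 35, comprising the recombinase, enzymes that process junctions, end-joining factors, regulators of the TRA locus and of DP lifespan, and receptor partners. Between ORFTOC and FTOC cells of the DP-list clusters, 33 of the 35 passed 10 CPM in the higher group, and none reached a 2-fold difference, beside 1.96% of 8384 genes (0.835% higher and 1.12% lower in ORFTOC). The median log2 ratio of the list was -0.03, and that of all genes tested was 0.01. Rag2 was measured at 239 CPM (ORFTOC) and 238 CPM (FTOC), and Dntt, which adds bases to junctions, at 1142 and 1152. Trac, the constant region, stood at 201 and 172. Counting intervals were apart for Tcf3, at 201 and 159, and Tcf7, at 1473 and 1601, without reaching 2-fold. The share of all genes with intervals apart was not computed, so that this is not read as a trait of the list. Poll and Nhej1 had at most 4 UMIs in a pool and were not assessed.

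Between DP-list cluster cells with and without a productive TRA chain, no gene of the list reached 2-fold in FTOC, beside 3.04% of 8417 genes (1.60% higher and 1.44% lower with a chain). In ORFTOC 1 of 32 did, Prkdc, an end-joining kinase, on 9 against 7 UMIs, beside 9.92% of 8417 genes (5.16% higher and 4.76% lower with a chain). The counting intervals of Prkdc overlapped. Trac itself was 229 CPM with a productive chain and 141 without in FTOC, a log2 ratio of 0.70, and 236 and 182 in ORFTOC, a log2 ratio of 0.38. Its counting intervals were apart in FTOC and overlapped in ORFTOC, and here too the share of all genes with intervals apart was not computed. Ptcra, the surrogate alpha chain of the pre-receptor, was 99.1 with and 122 without in FTOC, and 108 and 120 in ORFTOC.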

How the data were processed

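The libraries of 1 lane (5′ gene expression, T-cell receptor and hashtag) were analysed. Per the labels, the authors used Cell Ranger 6.1.2 on mm10 (the matrix header names Cell Ranger 4) and Seurat 4.2.0; the deposited values are raw UMI counts per gene and barcode, and reads and UMI counts per assembled contig. Cells with at least 600 genes and 0.4 to 10% mitochondrial counts were kept (10245 of 705161 barcodes) and assigned to pools with HTODemux (Seurat 5.3.0, R 4.3.3). Hashtag doublets, cells without hashtag and 591 within-pool doublets, found from neighbours of hashtag doublets, were left out, giving 8392 cells. Immune cells were clustered after SCTransform (sctransform 0.4.2; 18 components, resolution 1). TRA rows of left-out barcodes numbered 461 (hashtag doublets), 183 (within-pool doublets), 108 (no hashtag) and 501 (not among kept cells). Shares and CPM were computed in Python 3.11.15 with scipy 1.17.1, as were log2 ratios with a pseudocount of 1 CPM. A germline end required 6 matching bases. The script for gene ratios was tested on simulated counts.

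Segments named were the 5 most used, the extremes of the row and of the non-productive share, the invariant pairs and shared chains. Members and lists were chosen with earlier results of these data known. Alternatives concerned contig support, the contig list, hashtag rule, doublets, genes per cell, J and V limits, and clustering.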

Additional observations from a re-analysis of the deposited data

Results flagged for a closer look

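Rows outside the rearrangements held 2 signals above the 3 counts that a count of 0 allows. There were 154 contigs with a TRAJ segment but no V segment and no called chain, 116 of them in cells of a pool, at a median of 2 UMIs. TRAJ58 accounted for 54 and TRAJ41 for 24, although TRAJ41 was absent from the rearrangements in both pools. In addition, 10 TRA rows carried a J segment of another locus, 6 of the delta and 4 of the beta locus, and 6 of the 10 lay in cells of a pool. No control sample was there to set either count against.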

How the results depend on the processing

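Of 224 values recomputed under alternatives, 174 stayed within the error of the reported value, and 50 moved out of it. Most of these are shares or levels that cannot change sign. The design, with 1 sample per pool in 1 lane, gives no spread between cultures, which is the main limit; depth limits chains with 1 UMI and cells with few.
With proximal J from TRAJ48 and distal J to TRAJ25, proximal shares were 21.2% (ORFTOC) and 21.01% (FTOC), the ORFTOC middle share 42.3%, and distal shares 36.4% and 35.3%. In cells with 1000 or more genes, proximal shares were 37.5% and 39.3% and distal shares 22.7% and 19.5%. With the filtered contig list distal shares were 24.5% and 22.9%. Ordering V segments along the chromosome gave rho of 0.50 and 0.49. With V groups set by family number (TRAV15-21 and TRAV1-7), proximal shares were 58.1% and 57.1% for the near group and 28.1% for the far group in FTOC.
Non-productive shares were 31.4% and 40.0% with 2 or more UMIs, 32.2% and 40.9% among full-length rows (chosen after seeing the data), and 43.1% in FTOC with each chain counted once, where rows without a junction merge by V and J. Cells with 2 rearrangements of any kind were 30.4% and 29.3%. With log-normalised clusters the distal share of mature-list clusters was 20.8% and 14.2%.
Rag1 in immune cells with 0, 1 and 2 productive chains was 375, 474 and 289 CPM (ORFTOC) and 902, 892 and 733 (FTOC) after thinning to 1000 UMIs, and 412, 511 and 220 and 939, 933 and 718 as the mean of cells. With 1000 or more genes it was 107 and 110 for 0 and 1 chains in ORFTOC, and 256, 326 and 226 in FTOC. In FTOC it was 367 and 370 for 0 and 1 chains with 2 or more UMIs, and 338 for 0 chains with the hashtag ratio rule. With within-pool doublets kept it was 159 and 132 for 0 and 1 chains in ORFTOC, the reverse of the reported order, and 391 and 396 in FTOC. With 2 or more UMIs it was 141 and 131 in ORFTOC, also reversed, as was FTOC after thinning and in the mean of cells. Thinning, chosen after seeing the data, moved 1 of 6 values by J position in DP-list clusters, that for ORFTOC cells with a proximal J segment, to 1106, which then overlapped the middle value. The 1 gene called in ORFTOC cells with a productive chain became 0 at 50 CPM or with doublets kept; no test was run, so no p-value goes with these counts.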
